A study of Mus musculus with 4 samples.

Results

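In mouse embryonic stem cells (ESCs), 126 genes had a transcript level that was lower after *Ythdf2* knockdown, higher again when wild-type YTHDF2 was put back, and lower with YTHDF2 whose m6A-binding site was mutated. They were chosen on the read counts of 4 poly(A)+ RNA-seq libraries, with each count divided by the library total (CPM, the usual per-library scaling of reads) and 0.1 added, and compared as log2 ratios. A gene was taken when its mean count over the 4 libraries was at least 100, when its log2 ratio of knockdown to control was at most -0.8, when that of wild-type YTHDF2 to knockdown was at least 0.8 and when that of mutant to wild-type YTHDF2 was at most -0.6. Chromosomes 12, Y and M and *Ythdf2* itself were left out. Of 50559 genes in the table, 11781 passed the count minimum and the exclusions and are called the tested genes here, and 126 of them (1.07%) met all 3 limits. These 3 ratios therefore chose the genes, and their values are given as a description of 4 libraries.

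The study asked how YTHDF2 acts in ESCs, and the rescue libraries asked whether RNA levels that depend on YTHDF2 also depend on its binding of m6A. N6-methyladenosine (m6A) is a methyl mark placed on adenosines of messenger RNA, mostly within a short sequence that often reads GGAC. YTHDF2, one of the YTH-domain reader proteins of the cytoplasm, recognises this mark and recruits the CCR4-NOT deadenylase, which shortens the poly(A) tail and leads to decay of the RNA. A direct target of this decay is expected to have more RNA when YTHDF2 is lacking, so a gene with less RNA after the knockdown shows the opposite direction.

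All libraries came from E14 mouse ESCs kept on gelatin in medium with LIF, and per the study's methods the hairpins were delivered by lentivirus into a line with a MERVL promoter-driven tdTomato reporter, with puromycin selection. The control, shScr+EV, had a scrambled hairpin and an empty vector. The knockdown, shYthdf2+EV, had a hairpin against *Ythdf2* and the empty vector. The rescue with wild-type YTHDF2 was shYthdf2+WT, and the rescue with the m6A-binding mutant was shYthdf2+Mut, both on the *Ythdf2* hairpin. The study lists more than 1 *Ythdf2* hairpin, and the labels do not give which was used. There was 1 library per group, so no difference here has a replicate check, no test was possible, and all words such as higher or lower compare single libraries. Values in brackets after a ratio are 95% Clopper-Pearson intervals on read pairs, which cover counting error only. Of the 3 ratios, those of the knockdown and of the wild-type rescue share the shYthdf2+EV library, and those of the wild-type and of the mutant rescue share the shYthdf2+WT library, so a deviation of 1 of these libraries enters both ratios that use it.

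The libraries held 31533129 to 35742335 counted reads each, with reads in 26123 to 26700 genes. Mitochondrial genes took 8.44% of reads in shScr+EV and between 6.14% and 6.75% in the others. For 488 genes of chromosome 12, the median log2 ratio to shScr+EV was taken relative to that of the tested genes. It was -0.28 in shYthdf2+EV, -0.11 in shYthdf2+WT and -0.25 in shYthdf2+Mut, with shScr+EV at 0 by definition. The same pair of libraries was thus lower there as in the chosen genes, from which chromosome 12 was left out. In such bulk libraries, fewer cells of a type and less RNA per cell cannot be told apart.

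The targeted gene was examined first. *Ythdf2* (chr4:131912227-131939567, mm39) was at 86.7 CPM in shScr+EV, 18.5 in shYthdf2+EV, 235 in shYthdf2+WT and 219.6 in shYthdf2+Mut. Its log2 ratio was -2.22 (-2.40 to -2.05) in shYthdf2+EV against shScr+EV and 3.66 (3.50 to 3.83) in shYthdf2+WT against shYthdf2+EV. The mutant and wild-type rescues differed by -0.10 (-0.17 to -0.03), so both carried similar amounts of *Ythdf2* RNA, above the control library. Reads of the construct and of the endogenous gene were not separated in these counts.

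The 126 genes together took 0.232% of all reads in shScr+EV, 0.109% in shYthdf2+EV, 0.240% in shYthdf2+WT and 0.118% in shYthdf2+Mut. The median gene was at 9.81 CPM in shScr+EV, 4.21 in shYthdf2+EV, 9.81 in shYthdf2+WT and 4.65 in shYthdf2+Mut. Per length, the median level was 3.25, 1.41, 3.47 and 1.52 FPKM in the same order, where the median of the tested genes lay between 8.13 and 8.58 FPKM. The genes were thus of low to moderate abundance. Their mean counts ran from 100.5 to 3835 reads with a median of 229.5, against a median of 1046 reads over the tested genes. In 52 genes the mean was under 200 reads, and in 9 it was at least 1000.

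The median log2 ratio of knockdown to control was -1.08 (range -1.99 to -0.80), that of wild-type rescue to knockdown was 1.16 (0.81 to 2.14), and that of mutant to wild-type rescue was -1.04 (-2.33 to -0.62). In the median gene 46.7% of the control level was left after the knockdown, with a range of 24.3% to 57.3%. For all 126 genes the 95% intervals of the 3 ratios excluded 0. These counts follow from the limits, and among all tested genes 2.16% passed the knockdown limit, 2.21% the wild-type limit and 7.72% the mutant limit.

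**Figure D1:**
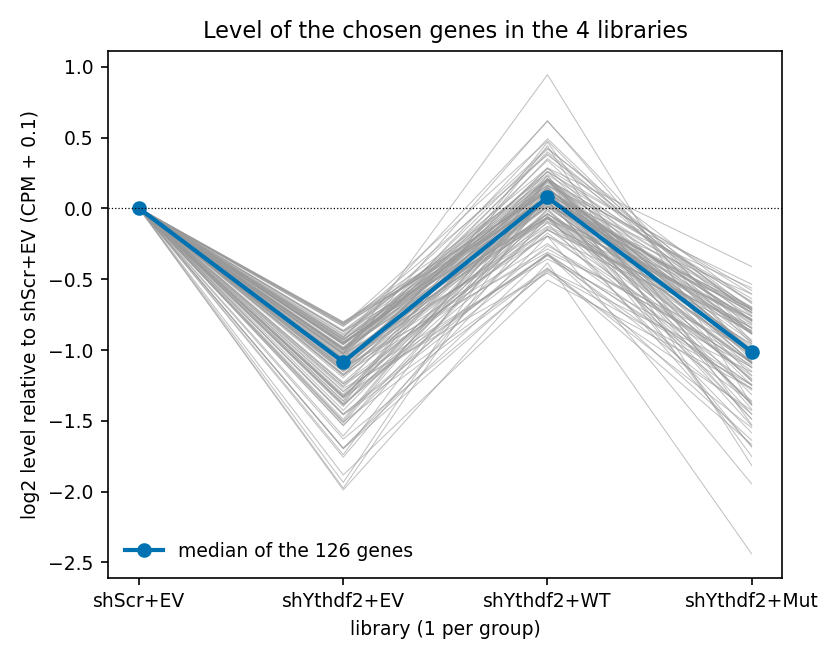
Level of each of the 126 genes in the 4 libraries, relative to shScr+EV on a log2 scale (y axis), with 1 thin line per gene, a thick line for the median, and 1 library per position on the x axis. The genes are high in shScr+EV and shYthdf2+WT and low in shYthdf2+EV and shYthdf2+Mut, as the limits require.

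The limits were met by small steps at the edge. The genes just inside them were *Fxyd6*, with a knockdown ratio of -0.80, *Cldn6*, with -0.80, *Ptprtos*, with a wild-type ratio of 0.81, and *Grb7*, with a knockdown ratio of -0.81. Just outside were *Phf19*, *Il10rb* and *Gm29695*, with wild-type ratios of 0.799, 0.795 and 0.792, and *9530077C05Rik*, with a mutant ratio of -0.599. In the edge genes on both sides shScr+EV and shYthdf2+WT were above shYthdf2+EV and shYthdf2+Mut, while the order within each pair of libraries varied. The gap between the 2 sides is smaller than the counting error of any of them.

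A further pair of ratios was not limited directly, although limits on the other 3 bound it in part. The first compares the mutant rescue with the empty vector, both on the *Ythdf2* hairpin. Over the 126 genes its median was 0.12 (range -0.45 to 0.96), beside a median of 0.02 over the tested genes. In 81 genes the mutant library was above the knockdown library and in 45 below it, where 53.6% of the tested genes were above. On the log2 scale 90 genes lay within 0.3, a count not made over the tested genes. The counting interval lay above 0 in 10 genes and below 0 in 0. The gene furthest above was *Muc2*, at 0.96, and the next were *Car12*, at 0.78, *Prr5l*, at 0.71, and *Slc1a1*, at 0.61.

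The second compares the wild-type rescue with the control. Its median was 0.08 (range -0.51 to 0.94), beside 0.05 over the tested genes, and the sign of this median depended on the scaling of the libraries, since it was -0.02 with upper-quartile factors. In 98 genes the difference was within 0.3, a count not made over the tested genes. In 81 the wild-type library was the higher, beside 59.4% of the tested genes. The interval lay above 0 in 18 genes and below 0 in 13. As a share, the median gene reached 105.6% of its control level with wild-type YTHDF2 (range 70.3% to 193.5%) and 49.0% with the mutant. Of what was lost on knockdown, the median gene regained 110.4% with wild-type and 7.02% with mutant YTHDF2, shares that the limits bound in part. The gene furthest above its control level was *Espn*, at 0.94, followed by *Cadm4*, at 0.62, and *Mapk13*, at 0.61, whereas *Slc1a1*, at -0.51, and *Xlr3a*, at -0.46, stayed below it.

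**Figure D2:**
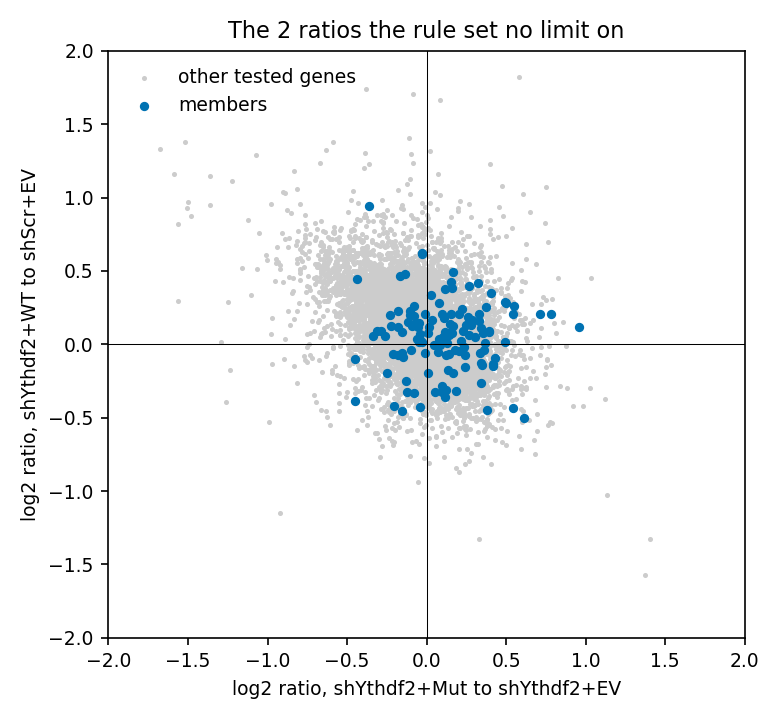
The 2 ratios that had no limit of their own, with the log2 ratio of shYthdf2+Mut to shYthdf2+EV on the x axis and that of shYthdf2+WT to shScr+EV on the y axis. Blue points are the 126 genes and grey points the tested genes, with 4 genes outside the axes, and the 126 genes lie around 0 on both axes.

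Of the 255 genes that passed the knockdown limit, 162 (63.5%) also passed the wild-type limit, and 157 (61.6%) the mutant limit. The remaining 36 genes that passed the first 2 limits were higher with wild-type YTHDF2 and did not reach the limit of the mutant against the wild type. All 36 had a mutant to wild-type ratio below 0, between -0.60 and -0.22, so the split from the 126 genes is one of degree. Among them were *Timp2*, an inhibitor of matrix metalloproteinases, *Nos3*, the endothelial nitric oxide synthase, *Smc1b*, a meiotic cohesin subunit, and *Patj*, a tight junction scaffold. The level of *Smc1b* was 50.6 CPM in shScr+EV, 20.4 in shYthdf2+EV, 37.1 in shYthdf2+WT and 25.97 in shYthdf2+Mut. This gene was thus between the knockdown and wild-type levels with the mutant.

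The genes furthest past the limits were ranked by the margin, the smallest of the 3 ratios after each was divided by its own limit. Promoters of the 6 leading genes in the reference table are shown because these genes had the clearest pattern, and those of *Oas3* and *F3* because each holds a pair of AP-1-like motifs (chosen after their values were seen). Each run is the 250 bases before and 50 after the most upstream start in RefSeq on GRCm38.p6, 5′ to 3′ on the strand of the gene, and the capitals mark TGANTCA, searched on both strands, where N is any base.
Prr5l (chr2:101882978-101883277, GRCm38.p6, - strand): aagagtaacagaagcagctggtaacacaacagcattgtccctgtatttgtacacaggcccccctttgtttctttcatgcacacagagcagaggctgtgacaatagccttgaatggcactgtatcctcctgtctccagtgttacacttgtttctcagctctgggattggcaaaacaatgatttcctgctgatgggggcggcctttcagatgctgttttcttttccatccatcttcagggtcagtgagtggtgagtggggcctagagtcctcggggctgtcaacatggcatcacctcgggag
Eps8l2 (chr7:141338752-141339051, GRCm38.p6, + strand): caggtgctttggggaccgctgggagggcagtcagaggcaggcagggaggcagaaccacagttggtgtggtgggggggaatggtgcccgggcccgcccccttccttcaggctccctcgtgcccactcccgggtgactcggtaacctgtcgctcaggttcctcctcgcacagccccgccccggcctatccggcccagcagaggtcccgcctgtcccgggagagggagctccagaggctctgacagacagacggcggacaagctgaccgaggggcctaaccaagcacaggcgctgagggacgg
Ltbp3 (chr19:5740650-5740949, GRCm38.p6, + strand): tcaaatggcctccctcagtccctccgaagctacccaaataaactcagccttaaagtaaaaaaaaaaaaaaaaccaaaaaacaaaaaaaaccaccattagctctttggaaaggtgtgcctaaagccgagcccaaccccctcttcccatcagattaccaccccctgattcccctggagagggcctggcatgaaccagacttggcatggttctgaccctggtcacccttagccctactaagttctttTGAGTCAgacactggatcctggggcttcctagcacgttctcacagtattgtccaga
Gm41031 (chr13:97826006-97826305, GRCm38.p6, - strand): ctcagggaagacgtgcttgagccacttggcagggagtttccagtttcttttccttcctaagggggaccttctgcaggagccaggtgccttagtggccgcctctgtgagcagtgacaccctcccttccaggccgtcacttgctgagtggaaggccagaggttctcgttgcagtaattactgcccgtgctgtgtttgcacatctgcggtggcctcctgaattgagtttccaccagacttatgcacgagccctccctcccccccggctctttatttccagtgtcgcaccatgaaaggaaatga
Padi2 (chr4:140906110-140906409, GRCm38.p6, + strand): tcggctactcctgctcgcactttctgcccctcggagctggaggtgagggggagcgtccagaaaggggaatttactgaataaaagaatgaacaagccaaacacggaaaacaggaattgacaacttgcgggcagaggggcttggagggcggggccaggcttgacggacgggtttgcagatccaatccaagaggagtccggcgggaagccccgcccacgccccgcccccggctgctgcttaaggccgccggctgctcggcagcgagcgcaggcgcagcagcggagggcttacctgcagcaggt
Muc2 (chr7:141690090-141690389, GRCm38.p6, + strand): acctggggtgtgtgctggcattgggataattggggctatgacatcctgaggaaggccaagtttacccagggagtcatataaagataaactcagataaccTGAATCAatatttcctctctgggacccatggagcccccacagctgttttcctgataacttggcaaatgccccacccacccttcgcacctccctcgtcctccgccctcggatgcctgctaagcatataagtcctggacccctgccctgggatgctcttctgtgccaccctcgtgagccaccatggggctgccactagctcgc
Oas3 (chr5:120777610-120777909, GRCm38.p6, - strand): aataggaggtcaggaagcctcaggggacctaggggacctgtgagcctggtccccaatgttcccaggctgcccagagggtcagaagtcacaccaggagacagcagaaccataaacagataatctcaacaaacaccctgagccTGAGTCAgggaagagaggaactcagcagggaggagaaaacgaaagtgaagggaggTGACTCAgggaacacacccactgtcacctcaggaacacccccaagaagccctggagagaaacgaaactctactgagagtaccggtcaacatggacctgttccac
F3 (chr3:121723287-121723586, GRCm38.p6, + strand): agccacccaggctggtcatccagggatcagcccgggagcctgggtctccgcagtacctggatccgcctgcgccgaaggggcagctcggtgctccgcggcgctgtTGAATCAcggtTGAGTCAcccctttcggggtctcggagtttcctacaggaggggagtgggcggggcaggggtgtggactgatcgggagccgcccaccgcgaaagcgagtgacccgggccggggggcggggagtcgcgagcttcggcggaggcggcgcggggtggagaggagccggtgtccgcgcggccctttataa
Of these, those of *Ltbp3* and *Muc2* hold the motif and those of *Prr5l*, *Eps8l2*, *Gm41031* and *Padi2* do not. A match is a description of letters and not of binding.

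*Prr5l* (chr2:101543455-101713428, mm39 as all gene positions here) encodes a protein that binds the mTORC2 kinase complex. It had the largest margin, with 5.31 CPM in shScr+EV, 1.32 in shYthdf2+EV, 6.14 in shYthdf2+WT and 2.22 in shYthdf2+Mut. The ratios were -1.94 (-2.70 to -1.32) for the knockdown, 2.14 (1.54 to 2.90) for wild-type against knockdown and -1.43 (-2.07 to -0.90) for mutant against wild-type. Both high libraries were well above both low ones, and the mutant library was above the knockdown library by 0.71, with an interval that included 0.

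*Ltbp3* (chr19:5790928-5808564) encodes a latent TGF-beta binding protein of the extracellular matrix and was at 8.46 CPM in shScr+EV, 2.43 in shYthdf2+EV, 8.16 in shYthdf2+WT and 2.57 in shYthdf2+Mut. *Sema3b* (chr9:107474873-107486440), a secreted semaphorin, was at 8.99 CPM in shScr+EV, 2.88 in shYthdf2+EV, 9.54 in shYthdf2+WT and 3.81 in shYthdf2+Mut. *Padi2* (chr4:140633648-140679897), an enzyme that converts arginine of proteins to citrulline, was at 11.2 CPM in shScr+EV, 3.81 in shYthdf2+EV, 11.2 in shYthdf2+WT and 3.93 in shYthdf2+Mut. In these genes the 2 low libraries lay closer to each other than to either high library, and *Padi2* reached the control level almost exactly with wild-type YTHDF2, with a ratio of 0.00. Exons of all 3 overlap another gene in the table, and reads were counted without regard to strand, so their counts are less certain.

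Other leading genes were of diverse function. *Tgm2* (chr2:157958325-157988312), a transglutaminase that crosslinks proteins, was among the more abundant, at 36.5 CPM in shScr+EV, 12.95 in shYthdf2+EV, 42.1 in shYthdf2+WT and 13.9 in shYthdf2+Mut, with ratios of -1.49 (-1.72 to -1.27), 1.69 (1.48 to 1.92) and -1.59 (-1.83 to -1.38) in the order of the rule. *Dnm1*, a dynamin that pinches off endocytic vesicles, had -1.43, 1.48 and -1.17. *Mpp2*, a membrane scaffold of the MAGUK family, had -1.31, 1.54 and -1.65, and *Mall*, a MAL-like membrane protein, had -1.69, 1.37 and -1.31. *Crybg2*, *Tmem35b* and *Hid1* were also among the 30 genes of the largest margin, with knockdown ratios of -1.30, -1.34 and -1.17. Over these 30 genes the mutant to knockdown ratio ran from -0.45 in *Gm41031* to 0.96 in *Muc2*.

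For description, 59 of the 126 genes were placed in 8 groups by their known role after their values had been seen, so the groups are no independent evidence of a direction and all their genes have the order of libraries that the rule requires. The largest held 11 epithelial genes, with keratins, junction proteins, mucins and proteins of actin-based protrusions. Summed, they were at 143.3 CPM in shScr+EV, 63.3 in shYthdf2+EV, 165.8 in shYthdf2+WT and 63.6 in shYthdf2+Mut. In the sum the 2 low libraries differed little, and the wild-type library was the highest.

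Keratins form the intermediate filaments of epithelia, and *Krt8* and *Krt19* are expressed in the trophectoderm of the embryo. *Krt19* (chr11:100031636-100036752) was at 24.3 CPM in shScr+EV, 9.43 in shYthdf2+EV, 33.7 in shYthdf2+WT and 8.37 in shYthdf2+Mut, with ratios of -1.36 (-1.64 to -1.11), 1.83 (1.59 to 2.10) and -2.00 (-2.29 to -1.73). *Krt8* (chr15:101905146-101912777) was at 37.6 CPM in shScr+EV, 18.8 in shYthdf2+EV, 36.6 in shYthdf2+WT and 17.5 in shYthdf2+Mut, with 49.9% of the control level left on the knockdown. *Krt17*, which neighbours *Krt19* on chromosome 11, had ratios of -1.33, 1.54 and -1.21. Of 56 keratin genes in the table, 5 were tested and 3 were among the 126.

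*Eps8l2* (chr7:140918824-140942933) and *Espn* (chr4:152204788-152236871) encode actin-binding proteins of microvilli and stereocilia. *Eps8l2* was at 14.3 CPM in shScr+EV, 4.23 in shYthdf2+EV, 16.6 in shYthdf2+WT and 4.19 in shYthdf2+Mut, so its mutant and knockdown libraries were nearly equal. *Espn* was at 7.63 CPM in shScr+EV, 3.69 in shYthdf2+EV, 14.8 in shYthdf2+WT and 2.85 in shYthdf2+Mut and had the lowest mutant to wild-type ratio of the 126 genes, -2.33 (-2.86 to -1.90). Its wild-type library exceeded its control by more than in any other of the 126 genes. *Baiap2l1*, an I-BAR protein that binds membranes and actin, had ratios of -1.33, 1.31 and -1.07.

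*Muc2* (chr7:141276583-141308428), a gel-forming mucin, was at 6.45 CPM in shScr+EV, 1.57 in shYthdf2+EV, 7.03 in shYthdf2+WT and 3.14 in shYthdf2+Mut, and had the highest mutant to knockdown ratio of the 126 genes, as given above. *Muc1*, a membrane mucin, had ratios of -0.92, 0.85 and -0.71. *Cldn6*, a tight junction claudin of early embryonic epithelia, had -0.80, 0.92 and -1.10, and *Tjp3*, a tight junction scaffold, had -1.01, 1.40 and -1.24. Of their families, 2 of 2 tested mucins, 1 of 3 tested claudins and 1 of 3 tested *Tjp* genes met the limits.

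The second group held 9 genes known to respond to low oxygen through hypoxia-inducible factors, which were the most abundant in sum, at 522.7, 265.9, 563.6 and 306.8 CPM in the order of libraries above. *Vegfa* (chr17:46327919-46343303), the vascular endothelial growth factor, was at 58.3 CPM in shScr+EV, 32.7 in shYthdf2+EV, 75.8 in shYthdf2+WT and 35.4 in shYthdf2+Mut, with ratios of -0.83 (-0.99 to -0.68), 1.21 (1.07 to 1.36) and -1.10 (-1.25 to -0.95). *Ero1a* (chr14:45520544-45556029), an oxidase for disulfide formation in the endoplasmic reticulum, was at 153 CPM in shScr+EV, 76.9 in shYthdf2+EV, 149 in shYthdf2+WT and 88.6 in shYthdf2+Mut. *Hk1* (chr10:62104634-62215699), a hexokinase that begins glycolysis, was at 135 CPM in shScr+EV, 70.3 in shYthdf2+EV, 139 in shYthdf2+WT and 74.1 in shYthdf2+Mut. These were among the 9 genes with mean counts of at least 1000, where counting error is smallest, and in each the intervals of the 3 limited ratios were narrow.

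*Ndrg1*, a stress-responsive gene, was at 48.9 CPM in shScr+EV, 25.2 in shYthdf2+EV, 58.5 in shYthdf2+WT and 32.7 in shYthdf2+Mut, and its mutant library exceeded the knockdown by 0.38 (0.19 to 0.56). *Bhlhe40*, a transcriptional repressor, was at 91.8 CPM in shScr+EV, 46.5 in shYthdf2+EV, 103 in shYthdf2+WT and 56.5 in shYthdf2+Mut. *Hif3a*, a hypoxia-inducible factor subunit, had ratios of -1.38, 1.35 and -0.98. *Car12*, a membrane carbonic anhydrase, had -1.50, 1.71 and -0.93, *Adm*, the vasodilator peptide adrenomedullin, had -1.06, 1.46 and -1.19, and *Eno2*, a glycolytic enolase, had -1.07, 1.20 and -0.92. The mutant library was above the knockdown library in all 9 genes of this group, as in 81 of the 126 and in 53.6% of the tested genes.

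**Figure D3:**
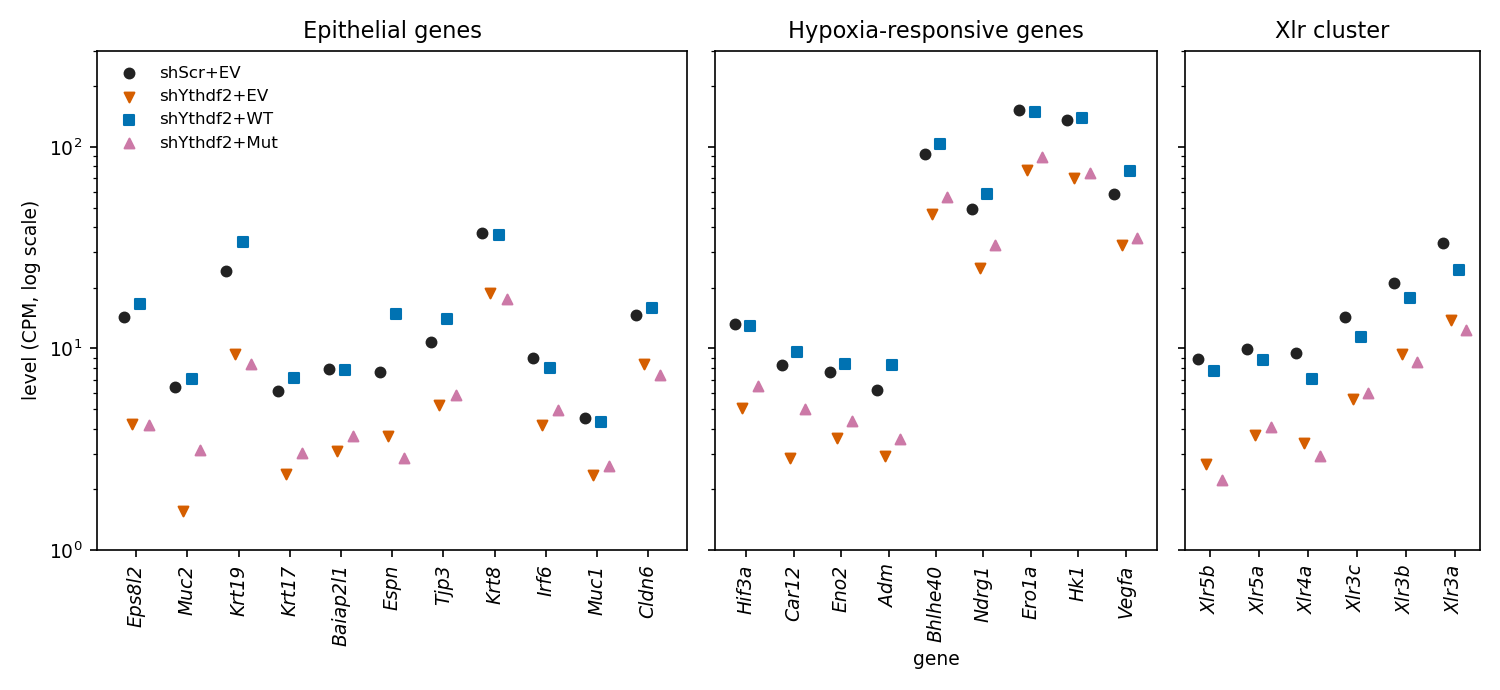
Levels of the 11 epithelial, 9 hypoxia-responsive and 6 *Xlr* genes (x axis) in the 4 libraries, in CPM on a log scale (y axis), with 1 point per library and no error bars, since there was 1 library per group. In each gene the shScr+EV and shYthdf2+WT points lie above the shYthdf2+EV and shYthdf2+Mut points.

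A wider list of glycolysis and hypoxia genes, written from their known roles, was read beside them. Of its 26 genes 24 were tested, and 3 were among the 126, *Hk1*, *Ndrg1* and *Vegfa*. Over the 24 genes the median ratio was -0.24 for the knockdown, 0.46 for wild-type against knockdown and -0.35 for mutant against wild-type. On the knockdown 21 of the 24 were below 0, with wild-type YTHDF2 24 were above 0, and with the mutant 22 were below the wild type, where 56.7%, 50.2% and 50.6% of all tested genes were above 0 in these ratios. Counts past the limits were lower, at 3 for the knockdown, 4 for the wild type and 5 for the mutant, beside 2.16%, 2.21% and 7.72% of all tested genes, and 0 genes of the list passed a limit in the opposite direction. With the other scalings of the libraries 22 or 23 genes were below 0 on the knockdown, and the other 2 counts were unchanged.

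**Figure D4:**
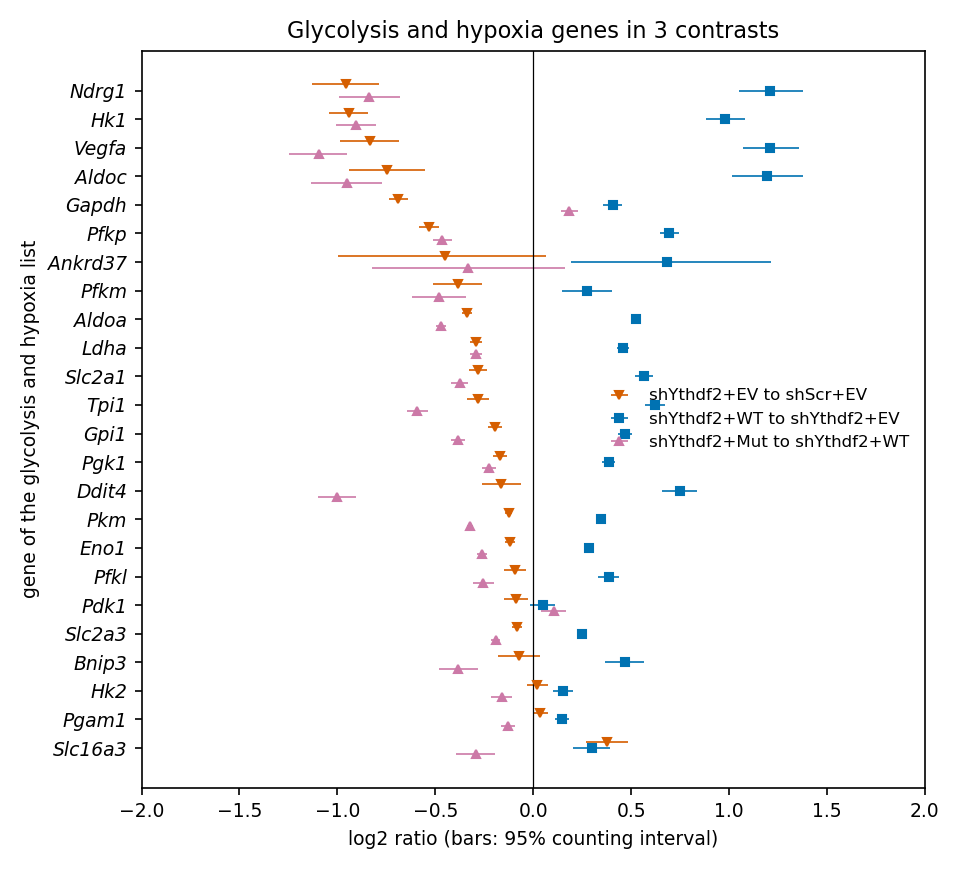
The 24 tested genes of the glycolysis and hypoxia list (y axis), with the log2 ratios of knockdown to control, wild-type rescue to knockdown and mutant to wild-type rescue on the x axis and 95% counting intervals as bars. The top 3 rows are the genes among the 126, and the ratios of the others have mostly the same signs and smaller size.

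A further group lies in 1 stretch of chromosome X. *Xlr3*, *Xlr4* and *Xlr5* genes are X-linked lymphocyte-regulated genes of a cluster in which some copies are imprinted in brain, and 6 of the 8 tested copies were among the 126, at chrX:72117949-72309178. *Xlr3a* was at 33.5 CPM in shScr+EV, 13.8 in shYthdf2+EV, 24.4 in shYthdf2+WT and 12.4 in shYthdf2+Mut, *Xlr3b* was at 21.1 CPM in shScr+EV, 9.43 in shYthdf2+EV, 17.7 in shYthdf2+WT and 8.59 in shYthdf2+Mut and *Xlr5b* was at 8.83 CPM in shScr+EV, 2.66 in shYthdf2+EV, 7.703 in shYthdf2+WT and 2.22 in shYthdf2+Mut. The highest value was in shScr+EV in each, so these genes were regained in part with wild-type YTHDF2. *Xlr3c*, *Xlr4a* and *Xlr5a* had knockdown ratios of -1.34, -1.46 and -1.39.

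The genes are copies of one another, reads that align to several places were dropped, and how many reads each copy lost or gained in this way was not tested. Aligned without gaps, the *Xlr5a* and *Xlr5b* promoters of the reference matched at 255 of 255 bases (100%), and those of *Xlr3b* and *Xlr3c* at 255 of 280 (91.1%). The other 13 pairs among the 6 promoters matched at 29.7% to 57.6%, with *Xlr3a* at 54.3% and 57.6% to *Xlr3b* and *Xlr3c*. The sum over the 14 *Xlr3*, *Xlr4* and *Xlr5* genes with reads does not depend on that assignment, except for dropped reads. It was 117.4 CPM in shScr+EV, 51.7 in shYthdf2+EV, 94.6 in shYthdf2+WT and 43.7 in shYthdf2+Mut, with ratios of -1.18, 0.87 and -1.11. *Xlr4b* was at 4.48 CPM in shScr+EV, 4.197 in shYthdf2+EV, 5.06 in shYthdf2+WT and 2.32 in shYthdf2+Mut. It passed the mutant limit, at -1.10, and not the others, with a knockdown ratio of -0.09. *Xlr5c* also passed the mutant limit alone, at -1.20. *Xlr4c* had ratios past all limits with a mean of 79.75 reads, under the minimum.

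Of genes induced by interferon, 5 were found, with a sum of 156.6, 75.9, 149.4 and 85.1 CPM. *Rnf213* (chr11:119280778-119378245), a large ubiquitin ligase, made up most of it, at 126 CPM in shScr+EV, 61.7 in shYthdf2+EV, 109.8 in shYthdf2+WT and 69.1 in shYthdf2+Mut. *Oasl1*, a 2′-5′ oligoadenylate synthetase-like protein, was at 4.69 CPM in shScr+EV, 1.76 in shYthdf2+EV, 5.13 in shYthdf2+WT and 1.65 in shYthdf2+Mut, and *Oas3*, an oligoadenylate synthetase that activates RNase L, was at 6.11 CPM in shScr+EV, 2.97 in shYthdf2+EV, 6.75 in shYthdf2+WT and 3.298 in shYthdf2+Mut. *Ifi30*, a lysosomal thiol reductase, had ratios of -1.05, 1.54 and -1.38, and *Igtp*, an interferon-induced GTPase, had -1.14, 1.49 and -1.09. Of the 10 tested genes of a fixed interferon and RNA sensing list 1, *Oasl1*, was among the 126, and the median knockdown ratio of that list was 0.14.

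Secreted ligands and their receptors made up 8 genes, at 65.4, 27.8, 68.4 and 31.1 CPM in sum. Among the ligands, *Wnt7b* (chr15:85419638-85466022), a Wnt protein, was at 4.51 CPM in shScr+EV, 1.51 in shYthdf2+EV, 5.03 in shYthdf2+WT and 1.84 in shYthdf2+Mut, with ratios of -1.52 (-2.27 to -0.92), 1.67 (1.09 to 2.42) and -1.404 (-2.12 to -0.83). *Pdgfb*, a subunit of platelet-derived growth factor, had -0.99, 1.19 and -1.29. Its receptor *Pdgfrb* (chr18:61178194-61218139) was at 23.1 CPM in shScr+EV, 11.02 in shYthdf2+EV, 22.4 in shYthdf2+WT and 12.5 in shYthdf2+Mut. *Fgfr3*, a fibroblast growth factor receptor, had -1.13, 0.94 and -0.93, *Acvrl1*, a type I receptor of the TGF-beta family, had -0.99, 1.41 and -1.09, and *Il27ra*, the interleukin-27 receptor, had -0.93, 1.07 and -1.14. Of the 6 tested platelet-derived growth factor and receptor genes only these 2 met the limits, and the other 4 had knockdown ratios above 0.

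Of proteins of muscle and the actin cytoskeleton there were 9, at 219.3, 108.2, 231.4 and 112.1 CPM in sum. *Synpo* (chr18:60727053-60793241), an actin-associated protein, was at 6.05 CPM in shScr+EV, 2.27 in shYthdf2+EV, 8.26 in shYthdf2+WT and 1.65 in shYthdf2+Mut, with a mutant to wild-type ratio of -2.26 (-2.98 to -1.70). *Myh7b*, a myosin heavy chain, was at 30.02 CPM in shScr+EV, 14.6 in shYthdf2+EV, 37.99 in shYthdf2+WT and 14.9 in shYthdf2+Mut. *Alpk3*, a kinase-like protein of heart muscle, was at 48.2 CPM in shScr+EV, 25.7 in shYthdf2+EV, 49.4 in shYthdf2+WT and 24.6 in shYthdf2+Mut. *Tns1*, the focal adhesion protein tensin, had ratios of -0.89, 0.97 and -0.81, *Gsn*, the actin-severing gelsolin, had -0.99, 1.01 and -1.06, and *Hspb8*, a small heat shock protein, had -1.32, 1.25 and -1.13. Of a fixed list of targets of actin signalling through YAP and SRF, 0 of 19 tested genes were among the 126.

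Germ cell genes were 4 in number, at 91.6, 43.5, 88.1 and 44.8 CPM in sum. *Aurkc*, a kinase of meiotic chromosome segregation, was at 31.9 CPM in shScr+EV, 16.1 in shYthdf2+EV, 35.3 in shYthdf2+WT and 15.5 in shYthdf2+Mut. *Clgn*, a chaperone of sperm proteins, was at 40.6 CPM in shScr+EV, 18.6 in shYthdf2+EV, 32.7 in shYthdf2+WT and 20.2 in shYthdf2+Mut, and *Ybx2*, a germ cell RNA-binding protein, had ratios of -1.08, 1.02 and -1.03. *Tle6*, a maternal factor of the oocyte and early embryo, had -1.12, 1.40 and -1.32. Of 16 tested genes of a fixed germline and meiosis list 0 were among the 126.

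The 7 metabolic enzymes and transporters were at 146.4, 61.2, 134.0 and 72.1 CPM in sum. *Slc1a1* (chr19:28812535-28891360), a glutamate and cysteine transporter, was at 24.9 CPM in shScr+EV, 6.69 in shYthdf2+EV, 17.5 in shYthdf2+WT and 10.3 in shYthdf2+Mut, with a knockdown ratio of -1.88 (-2.2 to -1.60), among the lowest of the 126. Its mutant library exceeded the knockdown and its wild-type library stayed under the control. *Cyp2b23*, a cytochrome P450 with near-identical relatives, was at 42.7 CPM in shScr+EV, 15.5 in shYthdf2+EV, 34.2 in shYthdf2+WT and 17.6 in shYthdf2+Mut, and this assignment is uncertain. *Acss2*, an acetyl-CoA synthetase, had ratios of -1.03, 0.96 and -0.72, *Ckmt1*, a mitochondrial creatine kinase, had -1.12, 1.13 and -1.003, and *Pdk2*, a pyruvate dehydrogenase kinase, had -1.03, 1.21 and -0.95.

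The other 67 genes had no common role that was assigned here. Long noncoding RNAs made up 13 of the 126 genes (10.3%), against 2.31% of the tested genes, and protein-coding genes 110 (87.3%, against 92.7%). The noncoding *Gm41031* (chr13:97945501-97962563) was at 9.73 CPM in shScr+EV, 2.38 in shYthdf2+EV, 7.43 in shYthdf2+WT and 1.71 in shYthdf2+Mut, with ratios of -1.99 (-2.58 to -1.56), 1.60 (1.14 to 2.203) and -2.05 (-2.78 to -1.51). *Gm41553* and *AI662270* followed, with mutant to wild-type ratios of -1.77 and -1.04, and *Gm21283*, *Srrm4os* and *Gm38509* had -0.97, -1.54 and -1.59. *Srrm4os* overlaps *Srrm4*, and with counting without strand, reads in their shared exons were not used.

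Among the other protein-coding genes, the more abundant had small counting error. *Ndrg2*, a relative of *Ndrg1*, was at 35.2 CPM in shScr+EV, 17.6 in shYthdf2+EV, 37.4 in shYthdf2+WT and 19.1 in shYthdf2+Mut. *Fxyd6*, a regulator of the sodium pump, was at 64.4 CPM in shScr+EV, 36.9 in shYthdf2+EV, 65.8 in shYthdf2+WT and 35.8 in shYthdf2+Mut, and *Tinagl1*, a secreted matrix protein, was at 36.5 CPM in shScr+EV, 18.3 in shYthdf2+EV, 43.7 in shYthdf2+WT and 17.4 in shYthdf2+Mut. *Wfdc2*, a secreted protein of epithelia, had ratios of -1.09, 1.22 and -1.44, and *Esx1*, a homeobox gene of the placenta and male germ line on chromosome X, had -1.29, 0.96 and -1.03. *Zfp36*, which encodes tristetraprolin, a protein that itself recruits CCR4-NOT to RNA, had -0.93 (-1.17 to -0.71), 1.08 (0.86 to 1.31) and -1.20 (-1.45 to -0.97). It was the 1 gene of 15 tested immediate early genes among the 126.

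Across 26 gene lists of pathways and cell types, 345 genes were tested, and 9 of them (2.61%) were among the 126, beside 1.07% of all tested genes. They fell in 6 lists, with *Hk1*, *Ndrg1* and *Vegfa* in glycolysis and hypoxia, *Krt8* and *Krt19* in trophectoderm, and *Cldn6*, *Oasl1*, *Pdgfrb* and *Zfp36* in extracellular matrix and adhesion, interferon, fibroblast and immediate early genes. The other 20 lists had none, among them pluripotency, glutathione and NRF2, p53, sterol synthesis, Wnt, Nodal and BMP and FGF-ERK genes. Lysosome genes also had none, though *Lgmn* of this list, on chromosome 12, had ratios past all 3 limits. The list medians were -0.25, 0.33 and -0.18. Of the 18 tested, 15 were below 0 on the knockdown, 15 above 0 with the wild type and 14 below 0 with the mutant. Of all tested genes 56.7%, 50.2% and 50.6% were above 0 in these ratios. With the other scalings the list counts were 15 or 16, 15, and 12 to 15. Ribosomal protein genes stood out in the mutant against the wild type, with a median of -0.61. Past that limit were 12 of 23, beside 7.72% of all tested genes, and 0 of them passed the knockdown limit, beside 2.16%.

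Markers of ESCs and of other cell types were summed to see whether the libraries differed in them. ESC markers were at 6677, 6916, 7199 and 6557 CPM in shScr+EV, shYthdf2+EV, shYthdf2+WT and shYthdf2+Mut, which matches the label. Trophectoderm markers were at 168.8, 114.1, 177.1 and 117.7 CPM, and without *Krt8* and *Krt19* at 106.8, 86.0, 106.9 and 91.8 CPM. Most of the latter sum was *Tfap2c*, at 63.3, 48.4, 64.6 and 48.3 CPM, and *Krt18*, at 15.6, 8.70, 12.9 and 7.36 CPM, both lower in the knockdown and mutant libraries. *Krt7*, with 64, 26, 74 and 26 reads, and *Hand1*, with 89, 61, 99 and 46, were lower in these too. *Eomes*, at 20.8, 23.5, 20.5 and 30.5 CPM, was higher in the knockdown and mutant libraries. *Ascl2* had its highest count in the knockdown library, with 60 reads, and *Gata3* in the mutant library, with 53. Of 11 markers 5 were tested, 2 of them among the 126, with medians of -0.83, 0.56 and -0.80 in the ratios of the rule. In each ratio 4 of the 5 had the sign of the 126 genes. The defining *Cdx2* had between 8 and 14 reads in a library, and *Elf5* had 14, 4, 28 and 12. Fibroblast markers were at 39.4, 23.0, 34.3 and 23.9 CPM, and without *Pdgfrb* at 16.3, 12, 11.9 and 11.4 CPM, with *Lum*, *Dcn* and *Fap* at 0 reads. Primitive endoderm markers were at 1281, 1312, 1329 and 1386 CPM, most of it *Lamc1* and *Sparc*. *Gata6*, at 2.625, 4.56, 2.12 and 4.535 CPM, and *Dab2*, at 3.06, 6.63, 2.49 and 8.40 CPM, were higher in the knockdown and mutant libraries. *Cubn* was too, and *Lamb1* and *Amn* were lower in these. Of the 8 tested markers 2 were below 0 on the knockdown, 3 above 0 with the wild type and 3 below 0 with the mutant. The part of other cells in the 126 genes was not tested beyond these values.

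Properties that the rule did not use were then compared. The longest transcript of the median gene had a GC content of 54.4%, against 49.7% over the tested genes, with a value for 121 of the 126 genes (96.0%) and 11529 tested genes. With the tested genes in 5 bins of equal size by GC content, the share among the 126 was 0.304%, 0.694%, 0.868%, 1.21% and 2.17% from the lowest to the highest bin, so 50 of the 121 lay in the GC-richest bin. The 209 genes of the mirror pattern, with all 3 limits reversed (1.77% of tested genes), ran the other way, from 2.47% to 0.434%.

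The ratios themselves moved with GC over all genes. The median mutant to wild-type ratio was 0.25 in the lowest bin and -0.27 in the highest, and the median wild-type to knockdown ratio was -0.19 and 0.17. The Spearman correlation with GC across the 11529 genes, which share libraries and are no replicates, was -0.05 for the knockdown ratio, 0.43 for the wild-type ratio and -0.49 for the mutant ratio. Each of the latter 2 uses the shYthdf2+WT library, and the ratio of that library to shScr+EV had 0.50. The ratio of shYthdf2+Mut to shYthdf2+EV, which does not use it, had -0.25. With all ratios centred on genes of like GC content, 101 of the 121 genes with a value still met the limits and 20 did not, among them *Krt8*, *Cldn6*, *Muc1*, *Alpk3* and *Rnf213*. Whether the GC dependence arose in the cells or in library preparation cannot be told apart with 1 library per group.

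**Figure D5:**
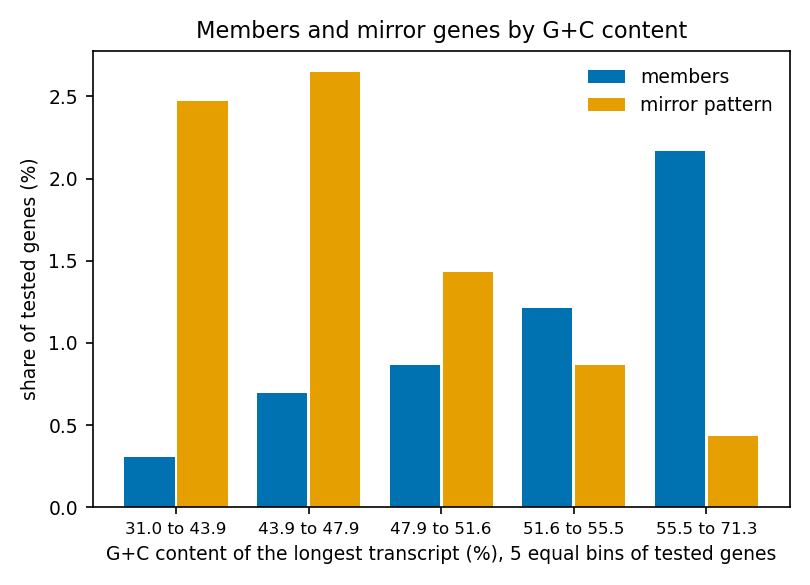
Share of tested genes, in percent (y axis), that are among the 126 genes or among the 209 genes of the mirror pattern, in 5 equal bins of transcript GC content (x axis, from lowest to highest). The share of the 126 genes is higher in GC-rich bins, from 0.304% to 2.17%, and that of the mirror pattern is lower, from 2.47% to 0.434%.

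The letters GGAC, the core of the m6A sequence, were more frequent in these transcripts, at a median of 5.05 per kb against 3.998 over the tested genes, and GGACT was at 1.32 against 1.02 per kb. These letters are themselves GC-rich. Within the highest GC bin the medians of GGAC were 6.06 and 5.61 per kb, and within the lowest, which held 7 of the genes, 3.17 and 2.52. No m6A was measured in these libraries. Transcript length was 3024 bases in the median gene against 3366, and the number of exons was 9 against 8.

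Low abundance was shared by the 126 genes and by the 209 of the mirror pattern. Their median mean counts were 229.5 and 242.8 reads, beside 1046 over the tested genes. Of tested genes with mean counts of 100 to 200 reads 3.71% were among the 126, and the share was 2.06% at 200 to 500 reads, 0.935% at 500 to 1000 and 0.149% above. Counting error is larger at low counts, and its part in this gradient was not tested. The genes were spread over the genome. The highest counts were on chromosomes 7 (15 genes), 2 and 11 (14 each) and 17 (11). These were 1.57%, 1.43%, 1.40% and 1.81% of the tested genes there, beside 1.60% on X and 1.07% of all. In 42 of the 126 (33.3%) another of the genes lay within 1 Mb on mm39, while 22.9% of the tested genes had 1 of the 126 within that distance. Adjacent pairs numbered 7, of which 4 were in the *Xlr* cluster and the others were *Krt19* and *Krt17*, *Fads6* and *Hid1*, and *Hspb8* and *Srrm4os*. Exons of 37 genes (29.4%) overlapped another gene, close to the 30.0% of tested genes, and these counts are less certain.

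Promoters were in the reference table for 94 of the 126 genes and for 9019 tested genes. Their median GC content was 58.7% against 61.3%, and their ratio of observed to expected CpG was 0.479 against 0.779, so they were poorer in CpG than those of the tested genes. In the ranges of mean count given above, the medians were 0.395 against 0.588 at 100 to 200 reads, 0.550 against 0.714 at 200 to 500, 0.381 against 0.752 at 500 to 1000, and 0.579 against 0.827 above, where 7 promoters of the genes were counted. The part of abundance in this difference was not tested. The GC box GGGCGG, read on both strands as all motifs here, was in 50% of the 94 promoters, in 66.4% of those tested and in 35.9% of all 27025 in the table. ACGTG, the core bound by hypoxia-inducible factors, was in 21.3%, 26.4% and 19.6%, and in that of 1 of the 7 hypoxia-responsive genes with an entry, *Ero1a*. CACGTG, which contains ACGTG, was in 6.38%, 10.7% and 7.24%.

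The AP-1-like TGANTCA was in 11 of the 94 promoters (11.7%), in 4.31% of those tested and in 7.92% of all, and TGACTCA, one of its forms, was in 7.45%, 3.13% and 5.17%. The 11 genes were *Ltbp3*, *Muc2*, *Gm21283*, *Gm38509*, *Oas3*, *Drc1*, *Tinagl1*, *F3*, *Sec31b*, *Esx1* and *Ptprtos*. The motif is in capitals in the sequences above for *Ltbp3*, *Muc2*, *Oas3* and *F3*, and the other promoters are not shown. Of the 11, 7 had mean counts of 100 to 200 reads, where 5.87% of tested promoters held it. *F3*, the tissue factor that starts blood coagulation, was at 7.94 CPM in shScr+EV, 4.03 in shYthdf2+EV, 8.9 in shYthdf2+WT and 4.12 in shYthdf2+Mut. TATAAA was in 8.51%, 6.56% and 14.2%, and the antioxidant-like TGACNNNGC in 18.1%, 15.0% and 12.4%. Motifs were chosen with the genes known, and nothing about a factor follows from a match or its lack.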

How the data were processed

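RNA-seq libraries from 4 groups of E14 mouse ESCs were analysed, with 1 library per group as placed by its title. Per the labels, poly(A)+ RNA was made into stranded dUTP libraries and sequenced paired-end on an Illumina NovaSeq instrument. The authors deposited 1 table of raw read counts by gene symbol. Its header names featureCounts 2.0.3 and the mm39 RefSeq annotation, with counting at exons, without strand, by reads and not by pairs, and with no use of reads that aligned to several places or overlapped several genes. The submitters' processing notes name fastp 0.19.4, HISAT2 2.2.1, DESeq2 1.40.2 and mm10, a build that differs from the file header, so which genome the reads were aligned to is uncertain.

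From these counts CPM by column total was computed, 0.1 was added, and log2 ratios were taken. FPKM used the exon length of the deposited table. Intervals are 95% Clopper-Pearson intervals on reads divided by 2, and cover counting error only, since amplified reads are not independent molecules. A count of 3 reads was taken as a floor and equals 0.0839 to 0.0951 CPM. The ratio calculation was tested on simulated data. GC content, length, exon number and GGAC counts came from the longest transcript of the reference annotation with the same symbol, and promoters from RefSeq on GRCm38.p6. Only the symbols were matched, and no coordinates were moved between builds. Python 3.11.15, pandas 2.3.3, numpy 2.4.6, scipy 1.17.1 and matplotlib 3.10.9 were used, with edgeR 4.0.16 and DESeq2 1.42.0 in R 4.3.3 for scaling factors.

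The genes, gene lists, settings and alternatives were chosen with earlier results of these data known. The text names the 30 genes with the largest margin, those in a fixed list, and the 4 just inside and 4 just outside the limits. The role groups, their genes outside this rule and the motifs were chosen after values were seen. Alternatives were other scalings, pseudocounts, count minimums and limits, the inclusion of chromosome 12, and a required interval that excludes 0. Values of a few single genes are not reported here.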

Additional observations from a re-analysis of the deposited data

Results flagged for a closer look

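Chromosome 12 was left out of the genes described above, and its genes were read by the same limits. Among the 488 genes of chromosome 12 past the count minimum, 17 (3.48%) had ratios past all 3 limits, beside 1.07% of the tested genes of other chromosomes. On the knockdown 33 of the 488 (6.76%) passed the limit, beside 2.16% of the tested genes. Among the 17 were *Fos*, *Pygl*, a liver glycogen phosphorylase, *Lgmn*, the lysosomal protease legumain, and *Tcl1*, a cofactor of AKT kinase that is abundant in ESCs. Relative to the tested genes, the median log2 ratio of this chromosome to shScr+EV was -0.11 in shYthdf2+WT. It was lower in shYthdf2+EV, at -0.28, and in shYthdf2+Mut, at -0.25.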

How the results depend on the processing

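No paired analysis was possible because there was 1 library per group, and no replicate could be left out. The number of genes past all 3 limits, 126 as reported, was 458 with a mean count of at least 10, 218 with 50 and 74 with 200, and 49 with limits of 1 and 231 with limits of 0.6 for all 3 ratios. It was 132 with TMM, 125 with DESeq2 and 123 with upper-quartile factors, 128 without mitochondrial reads, 111 and 94 with pseudocounts of 0.5 and 1, 143 with chromosome 12 kept and 126 with intervals that exclude 0. With 2 alternatives chosen after seeing the data it was 89 without genes that overlap another and 109 with ratios centred by GC content. Of the 126, 93 were kept under every scaling and pseudocount. The mirror pattern, at 209 genes, came to 589 with a mean count of at least 10, 127 with 200 and 114 with limits of 1.

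Over the 126 genes, the median knockdown ratio of -1.08 was -1.12 with TMM and DESeq2 factors, -1.14 with upper-quartile factors, -1.11 without mitochondrial reads, and -1.02 and -0.96 with pseudocounts of 0.5 and 1. The median wild-type ratio of 1.16 was 1.13 with upper-quartile factors and 1.09 and 1.02 with those pseudocounts, and the median mutant ratio of -1.04 was -0.98, -0.99 and -0.93 in the same order. The median of wild-type rescue against control, 0.08, was 0.0326 with TMM, 0.0219 with DESeq2 factors and 0.0454 without mitochondrial reads, and turned to -0.0175 with upper-quartile factors. The difference in median exon number from the tested genes, 1, was 2.5 among protein-coding genes, and that in transcript length, -342 bases, was -206 among protein-coding genes and -46 over all transcripts. The causes of these shifts were not tested. Ratios of genes with counts near 100 reads have the widest intervals, and depth cannot replace the replicates that are lacking.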

Other observations

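The *Fos* gene, an immediate early gene whose protein is a subunit of AP-1, lies on chromosome 12 and so could not be among the 126 genes, but it had the same pattern, at 112 CPM in shScr+EV, 37.01 in shYthdf2+EV, 78.3 in shYthdf2+WT and 26.3 in shYthdf2+Mut. Its ratios were -1.59 (-1.73 to -1.47), 1.08 (0.94 to 1.22) and -1.57 (-1.74 to -1.42) for knockdown to control, wild-type to knockdown and mutant to wild-type. Other AP-1 subunits were *Junb*, at 41.3 CPM in shScr+EV, 34.5 in shYthdf2+EV, 53.1 in shYthdf2+WT and 25.7 in shYthdf2+Mut, *Jun*, at 32.1 CPM in shScr+EV, 25.8 in shYthdf2+EV, 36.3 in shYthdf2+WT and 22.01 in shYthdf2+Mut, and *Fosb*, at 5.03 CPM in shScr+EV, 6.07 in shYthdf2+EV, 3.81 in shYthdf2+WT and 2.47 in shYthdf2+Mut. *Junb* and *Jun* had their highest value in shYthdf2+WT and their lowest in shYthdf2+Mut, and *Fosb* did not share that order. The immediate early genes *Ier3* and *Maff* met the wild-type and mutant limits and not the knockdown limit, with knockdown ratios of -0.51 (-0.78 to -0.26) and -0.52 (-0.82 to -0.23). *Egr1* was at 120.1 CPM in shScr+EV, 67.3 in shYthdf2+EV, 80.2 in shYthdf2+WT and 58.6 in shYthdf2+Mut and met the knockdown limit only. Other immediate early genes went the opposite way on the knockdown. *Myc* was at 8.83 CPM in shScr+EV, 24.1 in shYthdf2+EV, 13.9 in shYthdf2+WT and 24.3 in shYthdf2+Mut, with ratios of 1.44 (1.17 to 1.73), -0.79 (-1.03 to -0.56) and 0.80 (0.56 to 1.05), and *Atf3*, *Btg2*, *Klf2* and *Nr4a1* had knockdown ratios of 1.14 (0.61 to 1.78), 0.71 (0.60 to 0.83), 0.37 (0.28 to 0.46) and 0.22 (0.09 to 0.36). Over the 15 tested genes of the list, 7 were below 0 on the knockdown, and the median ratios were 0.08, 0.17 and -0.50.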
